A study of Mus musculus with 16 samples.

Results

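The hypothalamus of mice on diets with 1% of energy from protein was set against that of mice on diets with 5% of energy from protein, at both fat contents of the study. The comparison was defined by the protein labels, with earlier results of these data known. It holds 8 of the 16 RNA-seq libraries of the study. The 1% protein group has 2 libraries at 60% of energy from fat and 2 at 20% of energy from fat, and the 5% protein group has the same number at each fat content. The remaining 8 libraries, at 2.5% and 20% protein, share in the estimate of the spread and give the neighbouring protein levels. All animals were C57BL/6N mice, an inbred strain. The labels name no allele, drug, age, sex or length of feeding. Nor do they state whether each library of a diet is a different animal, so the p-values measure only how these samples vary, and that variation may be technical. The diet codes in the labels of the 1% and 2.5% diets start differently from those of the 5% and 20% diets. Between 1% and 5% protein that difference cannot be told apart from protein content. The 1% and 2.5% diets, compared near the end, have codes that start alike. The part of the diet codes in the results was not tested.

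The hypothalamus reads hormones and nutrients and sets hunger, energy use and hormone release. In its arcuate nucleus, neurons that make neuropeptide Y (Npy) and agouti-related peptide (Agrp) drive feeding, while neurons that make proopiomelanocortin (Pomc) restrain it. Amino acid shortage is read through mTORC1, a kinase complex that drives protein synthesis, and through the transcription factor ATF4, which turns on amino acid synthesis and transport genes. Glucocorticoids, the adrenal steroid hormones released under food restriction and stress, act in the same tissue through nuclear receptors that switch on a set of direct target genes.

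Values are CPM, read counts scaled to a common library total with TMM factors, and differences are log2 changes of 1% over 5% protein with their standard error (SE). A gene passed where the adjusted p of edgeR's quasi-likelihood test was under 0.05 over the 16646 genes tested. Where a group has 4 values, they are replicates 1 and 2 at 60% fat and then replicates 1 and 2 at 20% fat. The 8 libraries held 17731242 to 18511818 counts. All 24 listed markers of hypothalamic nuclei were tested, and their summed level ran from 793 to 1247 CPM at 1% protein and from 999 to 1116 CPM at 5% protein. The 1% protein, 20% fat replicate 2 stood apart: the mean log2 deviation of its cortex and hippocampus neuron markers from the 8-library mean was 0.70, against -0.23 to 0.03 in the others. Mitochondrial genes held 3.20% of its counts, 1.54% to 1.78% in the other 1% protein libraries and 2.19% to 3.10% in the 5% protein libraries. Across genes, the deviation of a library from the mean of the 8 had a Spearman correlation with gene length of 0.219 in that replicate, -0.244 to -0.131 in the other 1% protein libraries and -0.037 to 0.225 in the 5% protein libraries. The part of these differences in the results was not tested.

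At 1% protein 410 genes rose and 401 fell, 811 in all, which is 4.87% of the genes tested, 2.46% higher and 2.41% lower. These shares are the background for the list counts below. Of all 16646 genes tested, 8393 had a positive and 8253 a negative log2 change. The changes were mostly modest: 23 genes rose and 50 fell by more than 2-fold, and the median log2 change was 0.32 in the genes that rose and -0.50 in those that fell, against 0.00 over all genes tested. In 651 of the 811 genes the 4 libraries at 1% did not overlap the 4 at 5%. Over all genes tested, 4.9% had every 1% library above every 5% library and 4.56% had every 1% library below. All 811 genes had the same sign at 60% fat and at 20% fat. They were selected on these same libraries at both fat contents, so the selection itself favours this agreement. Without the 1% protein, 20% fat replicate 2, 1845 genes rose and 1974 fell, and 809 of the 811 were among them with the same sign. Without any other single library of the 8 the count lay between 332, without the 5% protein, 20% fat replicate 2, and 776, without the 5% protein, 20% fat replicate 1. The median deposited gene length was 17717.5 bases for the genes that rose and 29549 for those that fell, against 22590 over all genes tested. Of the 811, 45 carry predicted or clone names and are not named here.

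The genes of the best-known appetite peptides of the arcuate nucleus moved in opposite directions: Npy rose and Pomc fell. Npy, a potent hunger peptide, had 57.0 and 58.0 CPM at 60% fat and 86.4 and 119.7 CPM at 20% fat in the 1% protein libraries, against 26.5 and 20.0 CPM at 60% fat and 24.7 and 25.2 CPM at 20% fat in the 5% protein libraries. Every 1% library lay above every 5% library, and Npy rose by log2 1.70 ± 0.19 (SE; adjusted p = 0.000396), a 3.24-fold rise. Pomc, the precursor of the satiety peptide alpha-MSH, had 13.7 and 11.5 CPM at 60% fat and 13.7 and 11.8 CPM at 20% fat in the 1% protein libraries, against 34.4 and 40.0 CPM at 60% fat and 45.2 and 31.4 CPM at 20% fat in the 5% protein libraries. The groups did not overlap, and Pomc fell by 1.57 ± 0.19 on the log2 scale (adjusted p = 0.000524), to 0.336 of its 5% level. Both genes passed in each of the 20 alternative fits. Pomc is also made by the pituitary, whose markers summed to 1.41 to 3.69 CPM at 1% protein and 6.84 to 12.9 CPM at 5% protein, and the part of pituitary tissue in the Pomc difference was not tested. In build GRCm38 Npy lies at chr6:49822710-49829507 and Pomc at chr12:3954951-3960642; the deposited length of Npy equals its whole span, introns included. In bulk tissue, fewer cells of a type and less RNA per cell cannot be told apart.

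Agrp is made in the same neurons as Npy. It had 7.1, 6.4, 5.9 and 8.4 CPM at 1% protein against 5.1, 5.5, 4.8 and 6.1 CPM at 5% protein, a log2 change of 0.37 ± 0.13 that did not pass (adjusted p = 0.111), and its groups overlapped. Cartpt, whose peptide restrains feeding, had a log2 change of -0.32 ± 0.14 (adjusted p = 0.178). Hcrt, the orexin precursor of the lateral hypothalamus, had 179.9, 164.0, 187.5 and 101.2 CPM at 1% protein and 128.0, 127.5, 129.1 and 129.6 CPM at 5% protein. Its log2 change of 0.29 ± 0.16 did not pass (adjusted p = 0.290), and it passed without the 1% protein, 20% fat replicate 2, the only 1% library below the 5% libraries (adjusted p = 0.0164). Pmch, which encodes another feeding peptide of that area, had a log2 change of 0.12 ± 0.10 (adjusted p = 0.502). Agrp and Pmch overlap another coding gene on the genome, and the sources used here do not give how shared reads were counted. Of 9 orexigenic peptide genes tested, Npy alone passed, and the median log2 change was 0.29, with 6 of 9 positive. Of 17 anorexigenic genes, Pomc alone passed, and the median was -0.07. In the fit without the 1% protein, 20% fat replicate 2, 3 orexigenic genes were higher, 1 anorexigenic gene was higher and 3 were lower.

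**Figure D1:**
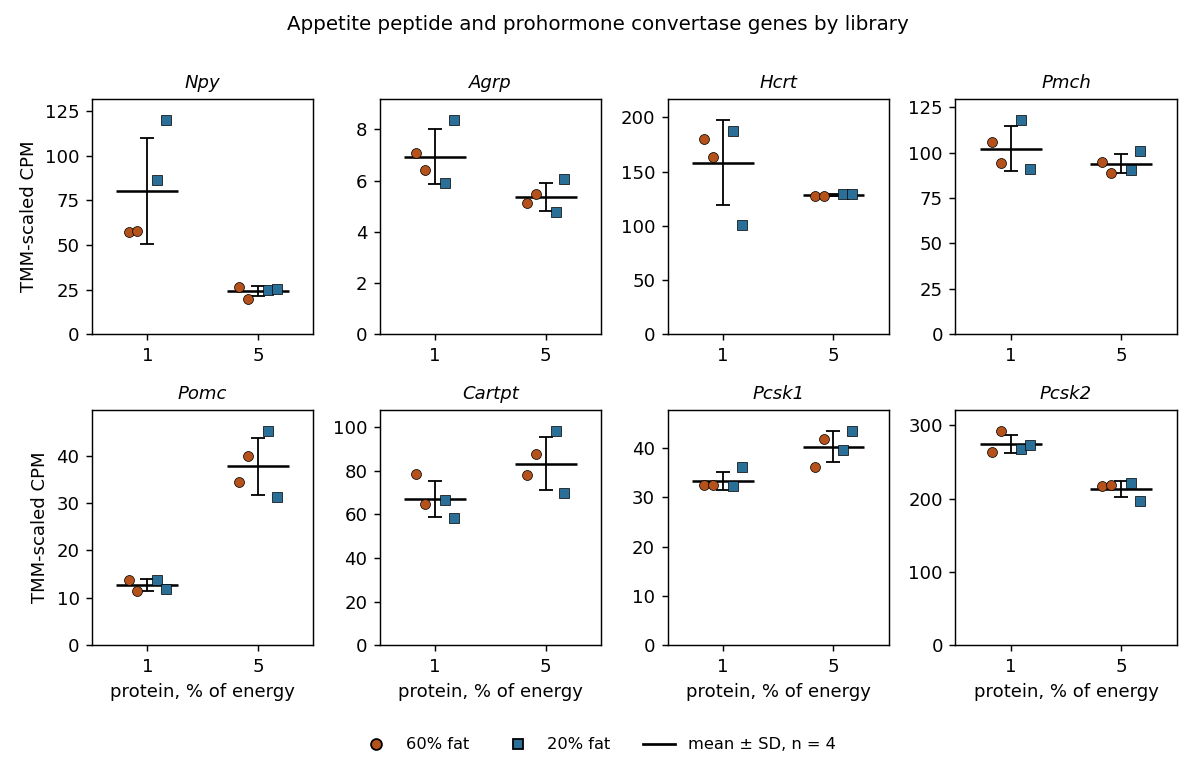
TMM-scaled CPM (vertical axes, from 0) of 8 peptide and convertase genes in the 4 libraries at 1% protein (left in each panel) and the 4 at 5% protein (right), circles for 60% fat and squares for 20% fat, with the mean and SD as bars. Npy lay between 57.0 and 119.7 CPM at 1% protein and between 20.0 and 26.5 CPM at 5%, while Pomc lay between 11.5 and 13.7 CPM at 1% and between 31.4 and 45.2 CPM at 5%.

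The enzymes that turn peptide precursors into hormones changed by less, and in both directions. Pcsk2, a convertase that completes the cleavage of proopiomelanocortin, had 264 to 292 CPM in the 1% protein libraries and 197 to 221 CPM in the 5% protein libraries, with no overlap, and rose (log2 0.36 ± 0.05, adjusted p = 0.00115). Cpe, the carboxypeptidase that trims the cut ends, rose by log2 0.21 ± 0.04 (adjusted p = 0.0131). Scg5, a chaperone of the PCSK2 enzyme, rose by log2 0.21 ± 0.04 (adjusted p = 0.0140). Pcsk1, the convertase of the first cuts, fell by 0.27 ± 0.06 on the log2 scale (adjusted p = 0.0216). Pcsk1 missed the threshold in 5 of the 8 fits that each left out 1 library (adjusted p up to 0.0786), Cpe without the 5% protein, 20% fat replicate 2 (adjusted p = 0.0539) and Scg5 without the 1% protein, 60% fat replicate 2 (adjusted p = 0.0550). In all, 3 of the 10 processing genes rose and 1 fell, with a median of 0.12. The list gave 5 higher and 1 lower without the 1% protein, 20% fat replicate 2, and 2 higher and none lower without the 1% protein, 60% fat replicate 2 or without the 5% protein, 20% fat replicate 2.

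Among 32 receptor and leptin or insulin signalling genes 2 rose, none fell and the median log2 change was 0.00. Ghsr, the ghrelin receptor, had 7.43, 5.91, 7.91 and 9.82 CPM at 1% protein and 5.09, 5.5, 4.89 and 6.08 CPM at 5% protein (log2 0.52 ± 0.12, adjusted p = 0.0232). Gipr, the receptor of the gut hormone GIP, had 3.60, 3.77, 5.20 and 5.05 CPM at 1% protein and 2.95, 3.05, 2.99 and 3.15 CPM at 5% protein (log2 0.53 ± 0.12, adjusted p = 0.0203). The 1% libraries of Gipr all lay above those at 5%, while for Ghsr 1 of them fell inside the 5% range. Ghsr missed the threshold in 4 and Gipr in 3 of the 8 fits without 1 library, with adjusted p up to 0.0657 and 0.0723. The list gave 6 genes higher and 5 lower without the 1% protein, 20% fat replicate 2.

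Most genes of the glucocorticoid response list rose and none fell. Of 36 listed genes 35 were tested, and 20 rose and 15 did not pass, where 2.46% of all genes rose. Their median log2 change was 0.51, and 34 of 35 were positive. At 60% fat the median was 0.42 and at 20% fat 0.62. The list takes in metabolic and stress targets that other signals also regulate. The count was 24 higher and 1 lower without the 1% protein, 20% fat replicate 2 and, without other single libraries, as low as 12 without the 1% protein, 60% fat replicate 2.

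Fkbp5, a co-chaperone that feeds back on the glucocorticoid receptor, had 97.6, 137.2, 94.4 and 139.8 CPM at 1% protein and 55.1, 65.9, 50.9 and 50.9 CPM at 5% protein (log2 1.07 ± 0.14, adjusted p = 0.000963). Cdkn1a, which encodes the cell cycle inhibitor p21, had 57.3, 117.3, 65.3 and 110.5 CPM at 1% protein and 35.4, 33.7, 24.7 and 23.9 CPM at 5% protein (log2 1.57 ± 0.23, adjusted p = 0.00195). Both genes had no overlap between the groups, and in both replicate 2 of each 1% diet was the higher library. Ddit4, an inhibitor of mTORC1 that is also an ATF4 target, had 94.3, 112.4, 107.3 and 108.2 CPM at 1% protein and 53.4, 69.3, 57.5 and 59.6 CPM at 5% protein (log2 0.81 ± 0.08, adjusted p = 0.000103). The 1% libraries of Ddit4 were close to each other and all above the 5% libraries.

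Other members that rose were Arl4d, a small GTPase (log2 1.18 ± 0.18), Sult1a1, a sulfotransferase (1.04 ± 0.18), Cebpd, a transcription factor (0.90 ± 0.15), Pdk4, a kinase that holds back glucose oxidation (0.88 ± 0.17), and Pnpla2, the main triglyceride lipase (0.61 ± 0.08). Plin4, a lipid droplet coat protein, rose by log2 1.14 ± 0.30 (adjusted p = 0.0398) and missed the threshold in 5 of the 8 fits without 1 library (adjusted p up to 0.158). Nfkbia, the inhibitor of NF-kB, rose by log2 0.56 ± 0.13 and missed it without the 1% protein, 60% fat replicate 2 (adjusted p = 0.0823) and without the 5% protein, 20% fat replicate 2 (adjusted p = 0.0675). The metallothionein Mt1, a metal-binding stress protein, rose by log2 0.41 ± 0.07 (adjusted p = 0.00379), while Mt2 had a log2 change of 0.27 ± 0.08 and did not pass (adjusted p = 0.0506). Sult1a1, Cebpd and Plin4 overlap another coding gene. The receptor genes themselves did not pass: Nr3c1, the glucocorticoid receptor, had a log2 change of -0.17 ± 0.07 (adjusted p = 0.171) and Nr3c2, the mineralocorticoid receptor, one of 0.05 ± 0.10 (adjusted p = 0.791). These receptors, Fam107a and Map3k6 below were named after their values were seen.

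**Figure D2:**
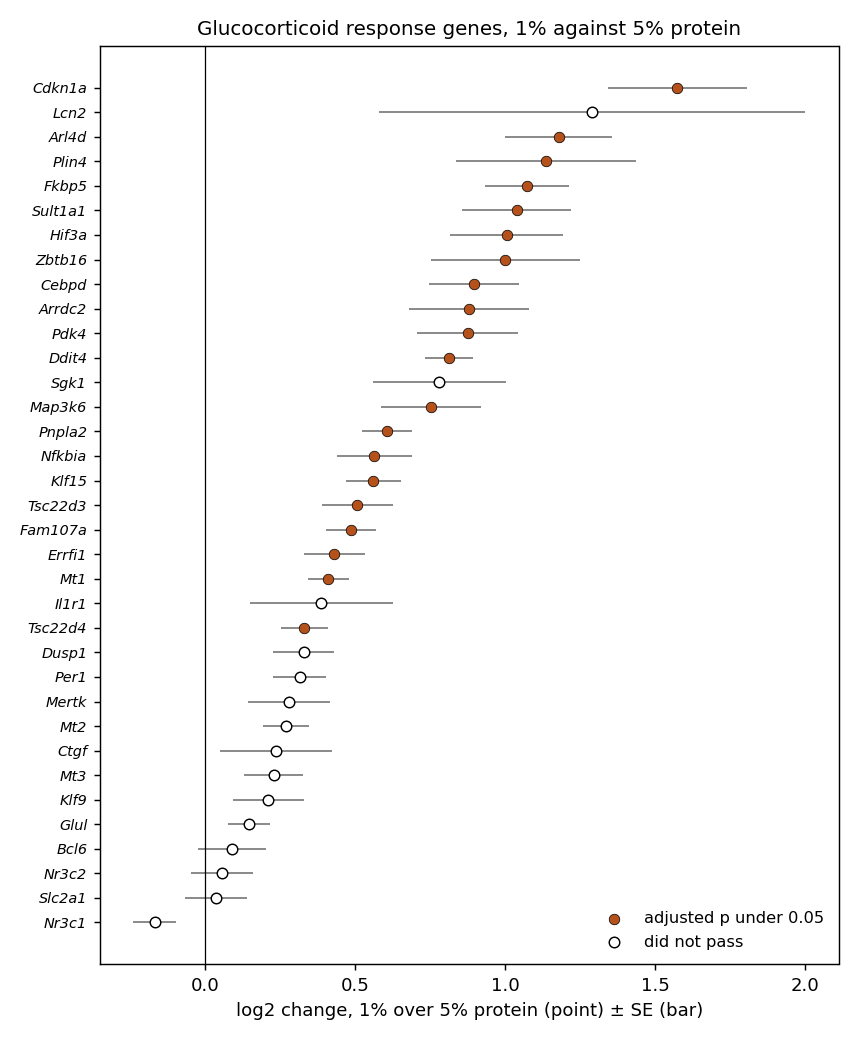
Log2 change of 1% over 5% protein (horizontal axis, bars ± SE) for the 35 tested members of the glucocorticoid response list, with filled points for the 20 that passed and open points for the 15 that did not. Nr3c1 alone lies left of 0.

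The glucocorticoid receptor binds a palindrome, so the promoters of the 20 risers were searched for GNACANNNTGTNC on both strands of the 250 bases before the gene start. Of the 20 risers 17 have a RefSeq promoter (GRCm38.p6), with 23 windows among them, and 3 of the 17 genes hold a match in at least 1 window. Over all promoters 0.387% of 32851 windows hold it, a share of windows and not of genes. List members that did not pass were not searched, and the list was drawn up for the glucocorticoid response. These shares therefore do not bear on the rise. The stretches below are shown because they carry that match, printed in capitals; Fam107a is read on the minus strand of chr14:8309860-8309922, Map3k6 on the plus strand of chr4:133240612-133240674 and Mt1 on the plus strand of chr8:94178970-94179032.
Fam107a: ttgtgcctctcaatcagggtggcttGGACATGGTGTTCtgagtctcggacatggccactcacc
Map3k6: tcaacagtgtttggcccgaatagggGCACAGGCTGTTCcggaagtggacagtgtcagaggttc
Mt1: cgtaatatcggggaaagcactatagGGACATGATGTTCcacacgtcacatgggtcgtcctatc
A match describes the letters and not binding, and a window without one says only that these letters are not in it. Fam107a, an actin-binding stress protein, rose by log2 0.49 ± 0.08 (adjusted p = 0.00446), and Map3k6, a stress kinase, by 0.75 ± 0.17 (adjusted p = 0.0173).

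Genes of amino acid sensing showed few changes. Mtor itself had 181.3, 181.8, 170.8 and 162.5 CPM at 1% protein and 173.2, 170.3, 182.0 and 163.6 CPM at 5% protein, a log2 change of 0.01 ± 0.05 (adjusted p = 0.889), and its sign turned in 4 alternative fits. Of 48 genes that regulate mTORC1, 2 rose and none fell (median 0.05), where 2.46% of all genes rose. The 2 were Ddit4, given above, and Sesn1, an amino acid sensor that holds mTORC1 back. Sesn1 had 65.5, 70.3, 63.3 and 75.1 CPM at 1% protein and 54.0, 57.8, 52.7 and 57.1 CPM at 5% protein (log2 0.31 ± 0.06, adjusted p = 0.0122), and it missed the threshold without the 1% protein, 60% fat replicate 2 (adjusted p = 0.0501). Of 24 genes downstream of mTORC1, 2 rose and none fell (median 0.07). They were Eif4b, a translation initiation factor (log2 0.24 ± 0.05), and Atg13, an autophagy initiator (0.22 ± 0.05), which missed the threshold in 4 and 6 of the 8 fits without 1 library (adjusted p up to 0.0618 and 0.124). Without the 1% protein, 20% fat replicate 2, 9 regulators were higher and 2 lower, and 7 downstream genes were higher and 4 lower. RNA levels do not measure the activity of the kinase.

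Of 44 genes of the ATF4 and amino acid deprivation list 8 rose and none fell, and 36 of 44 were positive with a median of 0.12. The count was 14 higher and 4 lower without the 1% protein, 20% fat replicate 2, and 2 higher without the 1% protein, 60% fat replicate 1. The members with the largest changes, Cebpd, Ddit4 and Cebpb, are stress factors that glucocorticoids also induce. Cebpb, a transcription factor, rose by log2 0.77 ± 0.18 (adjusted p = 0.0207), and it overlaps another coding gene. Enzymes of amino acid synthesis rose by less: Gpt2, which makes alanine, by log2 0.31 ± 0.08 (adjusted p = 0.0348) and Psat1, of the serine pathway, by 0.27 ± 0.06 (adjusted p = 0.0191). Cebpb, Gpt2 and Psat1 missed the threshold in 5, 6 and 4 of the 8 fits without 1 library, with adjusted p up to 0.0785, 0.142 and 0.0791. Among 33 amino acid transporters 1 rose and none fell (median -0.00), where 2.46% of all genes rose. It was Slc7a8, a carrier of large neutral amino acids (log2 0.31 ± 0.07), which missed the threshold in 4 of those fits (adjusted p up to 0.0790). Slc7a5, also listed, had 0 counts in all 8 libraries and was not tested. There were 3 transporters higher and 5 lower without the 1% protein, 20% fat replicate 2.

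Of 74 ribosomal protein genes tested 13 rose and none fell, where 2.46% of all genes rose. All 74 had a positive log2 change, with a median of 0.19, where 8393 of the 16646 genes tested were positive. Rpl3, of the large subunit, had 250, 245, 251 and 206 CPM at 1% protein and 195, 186, 190 and 185 CPM at 5% protein (log2 0.33 ± 0.07, adjusted p = 0.00980). Rplp0, Rpl14, Rpl12 and Rpl10a rose by log2 0.30 to 0.32, and the first 3 of them missed the threshold in 4 or 5 of the 8 fits without 1 library (adjusted p up to 0.103). The number that rose was 44 without the 1% protein, 20% fat replicate 2, the lowest of the 1% libraries for Rpl3, and 2 without the 1% protein, 20% fat replicate 1. Nuclear genes of the respiratory chain were positive in 67 of 70 with a median of 0.15, and 2 rose, Ndufs3 (log2 0.25 ± 0.06) and Ndufv3 (0.24 ± 0.07), which missed the threshold in 5 and 6 of those fits (adjusted p up to 0.1002 and 0.161). Of the list, 29 were higher without the 1% protein, 20% fat replicate 2. In 3 of the 4 libraries at 1% protein longer genes stood lower, as given above. With an offset for gene length in each library, 16 ribosomal protein genes rose with a median of 0.14, and 4 nuclear respiratory chain genes rose and 1 fell with a median of 0.11. Ribosomal protein genes have many near-identical copies, so their counts are uncertain. Rpl13 and Rpl24, which every cell uses, are listed at 0 in all 8 libraries. So are members of other lists, among them Cox4i1, Map1lc3b, Gfap, P2ry12, B2m, Slc7a5, Per3 and Mvd, and the reason was not tested. The 12 genes of the mitochondrial genome that were tested were all negative, with a median of -0.27 and none past the threshold. mt-Nd2, a complex I subunit, had 1281, 1270, 1182 and 2280.5 CPM at 1% protein and 2129, 2112, 1881 and 2438 CPM at 5% protein (adjusted p = 0.0704). Without the 1% protein, 20% fat replicate 2, which had 2280.5 CPM, 10 of the 12 were lower, and the median was -0.67.

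Among 43 fatty acid and ketone genes 7 rose and 3 fell (median 0.01). There were 12 higher and 4 lower without the 1% protein, 20% fat replicate 2, 4 higher and 2 lower without the 1% protein, 60% fat replicate 1, and 4 higher and 1 lower without the 5% protein, 20% fat replicate 2. Without the 5% protein, 60% fat replicate 2 or the 1% protein, 20% fat replicate 1, 1 was lower. Angptl4, a fasting-induced inhibitor of lipoprotein lipase, had 14.9, 16.4, 14.7 and 17.0 CPM at 1% protein and 11.98, 10.7, 12.2 and 8.12 CPM at 5% protein (log2 0.55 ± 0.11, adjusted p = 0.00839). The groups did not overlap. Fabp7, a fatty acid binding protein of astrocytes and progenitors, was 8.44, 6.81, 7.08 and 7.16 CPM at 1% protein and 15.6, 13.6, 14.6 and 21.3 CPM at 5% protein (log2 -1.15 ± 0.23, adjusted p = 0.00987). Pdk4, Pnpla2 and Plin4, given above, belong to this list as well. None of 24 cholesterol synthesis genes passed (median -0.08), and 2 were higher and 3 lower without the 1% protein, 20% fat replicate 2.

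Clock, thyroid and chaperone genes gave a few changes each. Of the listed clock genes, Per3 and Ciart had 0 counts in all 8 libraries and were not tested. Of 17 circadian genes 3 rose and none fell (median 0.16): Cry2, a repressor of the clock (log2 0.40 ± 0.06, adjusted p = 0.00286), and the output factors Hlf (0.35 ± 0.07, adjusted p = 0.00645) and Tef (0.23 ± 0.05, adjusted p = 0.0179). Tef missed the threshold in 3 of the 8 fits without 1 library (adjusted p up to 0.0772), and in those fits 2 circadian genes were higher, while 7 were higher and 1 lower without the 1% protein, 20% fat replicate 2. Of 15 thyroid genes 1 rose and 3 fell. Hr, a corepressor that thyroid hormone induces, had 158, 217, 164 and 164 CPM at 1% protein and 107, 133, 103 and 98.2 CPM at 5% protein (log2 0.67 ± 0.14, adjusted p = 0.0106). Slco1c1, a thyroid hormone carrier (log2 -0.33 ± 0.08), and Trhr, the receptor of thyrotropin-releasing hormone (-0.76 ± 0.21), fell, and missed the threshold in 4 and 6 of the fits without 1 library (adjusted p up to 0.0759 and 0.181). Of 31 chaperones 1 rose, Herpud1, of endoplasmic reticulum quality control (log2 0.36 ± 0.08), and 3 fell, with 26 of 31 negative and a median of -0.12. Hsph1, a cytosolic co-chaperone, fell by 0.42 ± 0.08 on the log2 scale (adjusted p = 0.00678). Cryab, a small heat shock protein (-0.54 ± 0.14), and Hsp90b1, a chaperone of the endoplasmic reticulum (-0.43 ± 0.11), fell as well, and each missed the threshold in 6 of the 8 fits without 1 library (adjusted p up to 0.135). Herpud1 missed it without the 1% protein, 60% fat replicate 2 (adjusted p = 0.0689) and without the 5% protein, 20% fat replicate 2 (0.0632), and 10 chaperones were lower without the 1% protein, 20% fat replicate 2.

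The genes with the largest falls included those of MHC class II, which presents peptides to helper T cells and marks a minority of brain border macrophages and infiltrating cells. Of 7 genes tested 4 fell and none rose, where 2.41% of all genes fell, and the median log2 change was -1.195. H2-Ab1 had 1.01, 1.01, 1.05 and 1.25 CPM at 1% protein, 18 to 23 counts a library, and 4.54, 3.59, 3.04 and 3.76 CPM at 5% protein, 56 to 83 counts a library. Its groups were far apart, and it fell by 1.78 ± 0.26 on the log2 scale (adjusted p = 0.00163). H2-Aa fell by 1.63 ± 0.36 (adjusted p = 0.0169), H2-Eb1 by 1.21 ± 0.25 (adjusted p = 0.0131) and Cd74, the invariant chain, by 1.195 ± 0.24 (adjusted p = 0.0100). None of the 4 overlapped between the groups. H2-Aa missed the threshold without the 1% protein, 60% fat replicate 2 (adjusted p = 0.0610), the 1% protein, 20% fat replicate 1 (0.0598) or the 5% protein, 20% fat replicate 2 (0.0517), and the other 3 passed in every alternative fit. All 4 stayed below 10 CPM, so these are low-level transcripts.

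MHC class II promoters share a Y box, searched here as CTGATTGG on both strands. Of the 7 genes 4 have a RefSeq promoter, with 5 windows among them, and 2 of the 4 genes hold the motif in at least 1 window, while 3.83% of the 32851 windows do. The stretches are shown because they carry the motif, printed in capitals. H2-Aa is read on the minus strand of chr17:34287842-34287899 and H2-Eb1 on the plus strand of chr17:34305780-34305837.
H2-Aa: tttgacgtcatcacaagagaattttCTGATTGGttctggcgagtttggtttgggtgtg
H2-Eb1: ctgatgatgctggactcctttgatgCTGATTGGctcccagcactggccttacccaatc

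Of 22 interferon and MHC class I genes 3 fell and none rose, 21 of 22 were negative and the median was -0.29. B2m, also listed, had 0 counts in all 8 libraries and was not tested. The number lower was 6 without the 1% protein, 20% fat replicate 2 and 1 without the 1% protein, 20% fat replicate 1. Gbp3, an interferon-induced GTPase, had 1.52, 1.74, 1.33 and 2.28 CPM at 1% protein and 2.68, 3.10, 4.72 and 3.76 CPM at 5% protein (log2 -1.04 ± 0.22, adjusted p = 0.0125). Ifitm3 (log2 -0.60 ± 0.16) and Ifi27 (-0.47 ± 0.10) also fell, and missed the threshold in 6 and 1 of the 8 fits without 1 library (adjusted p up to 0.136 and 0.0634, the last without the 1% protein, 20% fat replicate 1). Of 16 inflammatory genes Nfkbia rose and Vcam1, a vascular adhesion molecule, fell by 0.46 ± 0.09 (adjusted p = 0.00651). Siglech, a microglial surface receptor, fell by 0.59 ± 0.08 (adjusted p = 0.00115) and was the 1 of 10 microglial markers that passed. P2ry12, another microglial marker, had 0 counts in all 8 libraries and was not tested. Ptprc, the pan-leukocyte marker CD45, fell by 0.86 ± 0.20 (adjusted p = 0.0216), 1 of 8 border macrophage and leukocyte markers to pass, and missed the threshold in 6 of the fits without 1 library (adjusted p up to 0.0857). Of the 12 listed leukocyte markers Pf4, Cd3e, Ly6d and Itgax had at most 10 counts in any of the 8 libraries and were not tested. The summed level of those tested ran from 6.91 to 13.9 CPM at 1% protein and from 9.56 to 13.6 CPM at 5% protein, so the groups overlapped.

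Of 13 fibroblast and meningeal markers 8 fell, none rose and all 13 were negative (median -0.78). By step, the median was -0.13 for 1% over 2.5%, -0.55 for 2.5% over 5% and -0.26 for 5% over 20% protein. Their summed level ran from 163 to 251 CPM at 1% protein and from 283 to 310 CPM at 5% protein. Slc22a6, an organic anion carrier of the leptomeninges, had 3.77, 2.64, 2.99 and 5.70 CPM at 1% protein and 8.10, 12.7, 8.69 and 9.56 CPM at 5% protein (log2 -1.37 ± 0.25, adjusted p = 0.00677). Col1a1, a fibrillar collagen, had 8.95, 7.20, 6.52 and 9.17 CPM at 1% protein and 16.5, 14.9, 14.6 and 15.1 CPM at 5% protein (log2 -0.94 ± 0.13, adjusted p = 0.00115). Col3a1 fell by 1.12 ± 0.19 (adjusted p = 0.00397), Slc47a1, another organic ion carrier, by 1.57 ± 0.37 (adjusted p = 0.0232) and Aldh1a2, an enzyme of retinoic acid synthesis, by 0.88 ± 0.23 (adjusted p = 0.0363). Slc47a1 and Aldh1a2 missed the threshold in 4 and 6 of the 8 fits without 1 library (adjusted p up to 0.0870 and 0.127). The number of these markers that fell was 11 without the 1% protein, 20% fat replicate 2 and 3 without the 1% protein, 60% fat replicate 2.

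Among vascular markers 5 of 12 endothelial genes fell and none rose (median -0.43). Itm2a had 25.6, 27.2, 21.3 and 23.2 CPM at 1% protein and 39.1, 41.8, 40.4 and 34.9 CPM at 5% protein (log2 -0.68 ± 0.08, adjusted p = 0.000524). Cdh5, the endothelial cadherin, fell by 0.68 ± 0.13 (adjusted p = 0.00799). Abcb1a, Tek and Pecam1, a drug pump, a receptor kinase and an adhesion molecule of endothelium, fell by 0.52, 0.50 and 0.41, and missed the threshold in 4, 5 and 4 of the fits without 1 library (adjusted p up to 0.0636, 0.0912 and 0.0686). Of 10 mural cell markers 3 fell and none rose: the contractile genes Acta2 (-0.71 ± 0.11, adjusted p = 0.00318) and Myh11 (-0.71 ± 0.14, adjusted p = 0.0108), and Rgs5 (-0.51 ± 0.12, adjusted p = 0.0183), which missed it in 4 fits (adjusted p up to 0.0682). The mural median of -0.30 was -0.01 for 1% over 2.5%, -0.19 for 2.5% over 5% and 0.10 for 5% over 20% protein. The endothelial markers that fell numbered 8 without the 1% protein, 20% fat replicate 2. They numbered 2 without the 1% protein, 60% fat replicate 2, the 5% protein, 60% fat replicate 2 or the 1% protein, 20% fat replicate 1. The mural markers that fell numbered 2 without any 1 of those last 3 libraries. Without the 1% protein, 20% fat replicate 2, 1 mural marker was higher and 4 were lower. In the main fit 3 of the 12 endothelial and 2 of the 10 mural markers had a positive log2 change. Thbd, an anticoagulant receptor of endothelium, had 5.01, 4.84, 4.81 and 10.1 CPM at 1% protein and 12.7, 18.6, 18.1 and 13.5 CPM at 5% protein (log2 -1.35 ± 0.23, adjusted p = 0.00397).

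**Figure D3:**
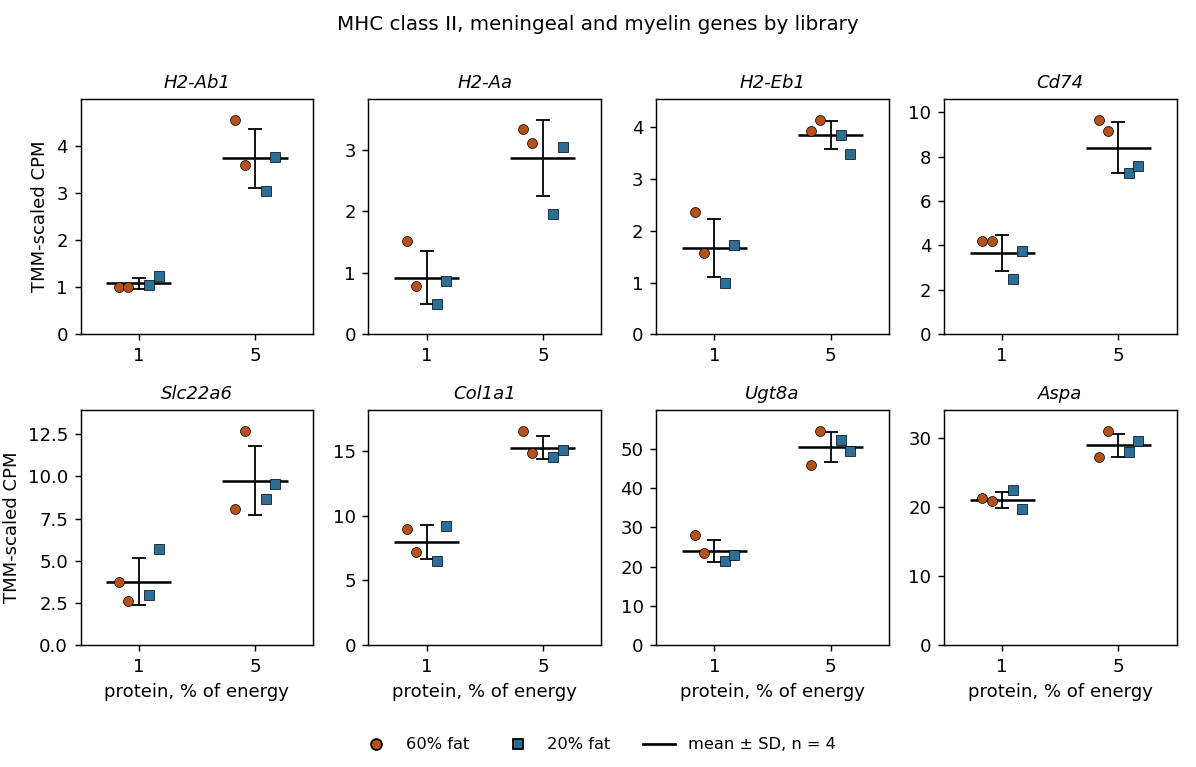
TMM-scaled CPM (vertical axes, from 0) of MHC class II (H2-Ab1, H2-Aa, H2-Eb1, Cd74), meningeal (Slc22a6, Col1a1) and myelin (Ugt8a, Aspa) genes in the 1% protein libraries (left in each panel) and the 5% protein libraries (right), with the mean and SD as bars, circles for 60% fat and squares for 20% fat. In each panel the 4 libraries at 1% lie below the 4 at 5%.

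Myelin genes fell in part. Of 12 mature oligodendrocyte markers 4 fell and none rose, with a median of -0.18. Ugt8a, which makes the myelin lipid galactocerebroside, had 27.97, 23.5, 21.5 and 23.0 CPM at 1% protein and 45.8, 54.5, 52.1 and 49.6 CPM at 5% protein (log2 -1.08 ± 0.11, adjusted p = 0.000126). Aspa, which frees acetate for myelin lipids, fell by 0.46 ± 0.07 (adjusted p = 0.00318). Ermn fell by 0.51 ± 0.13 (adjusted p = 0.0351) and missed the threshold in 6 of the fits without 1 library (adjusted p up to 0.114). The other 8 markers did not pass, and the summed level of all 12 overlapped: 8530 to 11094 CPM at 1% protein and 9782 to 11237 CPM at 5% protein. Of 11 markers of precursors and new oligodendrocytes 2 fell, Bmp4 (-0.82 ± 0.16, adjusted p = 0.00865) and Bcas1 (-0.40 ± 0.11, adjusted p = 0.0429), the second missing the threshold in 5 of those fits (adjusted p up to 0.0925). The median of this list, -0.10, was 0.03 for 1% over 2.5%, -0.12 for 2.5% over 5% and 0.08 for 5% over 20% protein.

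Astrocyte markers split. Of 11 tested 2 rose and 2 fell, with a median of -0.00. Gfap, also listed, had 0 counts in all 8 libraries and was not tested. Agt, the angiotensin precursor, had 577, 614, 559 and 435 CPM at 1% protein and 373, 429, 330 and 329 CPM at 5% protein (log2 0.58 ± 0.10, adjusted p = 0.00444). Aldh1l1, a folate enzyme, rose by log2 0.30 ± 0.07 (adjusted p = 0.0220) and missed the threshold in 5 of the fits without 1 library (adjusted p up to 0.0883). Aqp4, the water channel of astrocyte endfeet, had 59.0, 53.3, 49.7 and 79.5 CPM at 1% protein and 96.5, 97.2, 83.9 and 103 CPM at 5% protein (log2 -0.66 ± 0.13, adjusted p = 0.00962). Fabp7, given above, was the other that fell.

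Some thalamic markers rose. Of 12 thalamic markers 5 rose and none fell (median 0.48), and their summed level ran from 2152 to 2740 CPM at 1% protein and from 1578 to 2144 CPM at 5% protein. Prkcd, a kinase of thalamic relay neurons, had 263, 371, 284 and 228 CPM at 1% protein and 97.3, 188, 217 and 92.9 CPM at 5% protein (log2 0.93 ± 0.26, adjusted p = 0.0480). Gbx2, Synpo2, Plekhg1 and Tcf7l2 rose by log2 0.83, 0.83, 0.70 and 0.66. The 5 genes missed the threshold in 5 or 6 of the fits without 1 library, and the list gave 7 past it without the 1% protein, 20% fat replicate 2. None of the list passed without the 1% protein, 60% fat replicate 2, the highest library for Prkcd, nor without the 5% protein, 60% fat replicate 1 or 2, the 1% protein, 20% fat replicate 1 or the 5% protein, 20% fat replicate 2. Gabrd, a GABA receptor subunit that is also abundant in thalamic relay cells, rose by log2 0.83 ± 0.17 (adjusted p = 0.0111), the 1 of 28 GABA and glutamate receptor genes to pass, and 14 of them were lower without the 1% protein, 20% fat replicate 2. The part of the amount of thalamus in the dissected tissue was not tested.

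Choroid plexus markers ran from 57.2 to 270 CPM at 1% protein and from 49.5 to 71.9 CPM at 5% protein in their summed level. None of 9 passed, and 2 were higher without the 1% protein, 20% fat replicate 1. By DESeq2, the likelihood ratio test, no filter beyond 1 count or 1 surrogate variable 2 were higher as well. With the robust fit, or without the libraries with cortex markers, 1 of these markers was higher. Their median of 0.51 was 0.23 without the 1% protein, 60% fat replicate 1, 0.33 without the 1% protein, 20% fat replicate 2 and 0.17 over the markers with at least 1 CPM in 4 libraries. Ttr, the thyroid hormone carrier of that tissue, had 90.0, 30.2, 12.6 and 210 CPM at 1% protein and 3.39, 6.42, 29.5 and 13.2 CPM at 5% protein (adjusted p = 0.0676). Gh, growth hormone, is a pituitary product, and the summed pituitary markers are given above beside Pomc. Gh had 13, 5, 6 and 19 counts in the 1% protein libraries and 64, 135, 187 and 76 counts in the 5% protein libraries. It fell by 3.39 ± 0.93 (adjusted p = 0.0443) and missed the threshold in 7 of the 8 fits without 1 library (adjusted p up to 0.133), and the part of pituitary tissue was not tested. There were 2 pituitary markers lower without the 1% protein, 20% fat replicate 2. None of the 16 cortical (median 0.11), 10 striatal (-0.21), 10 ependymal and tanycyte (-0.12) or 4 blood markers (-0.12) passed. In the fit without the 1% protein, 20% fat replicate 2, 1 cortical marker was higher and the cortical median was -0.07. In that fit 2 ependymal and tanycyte markers were lower, and 1 was lower without the 1% protein, 60% fat replicate 1. That number was also 1 with RLE factors, DESeq2, the likelihood ratio test, the robust fit, the other filters and diets as groups. It was 1 with the replicate block, 1 surrogate variable and the length offset as well. Without the libraries with cortex markers 3 ependymal and tanycyte markers and 1 blood marker were lower. There 1 cortical marker was higher and 2 were lower, and 1 was higher with 1 surrogate variable. The striatal median was 0.14 without the 5% protein, 20% fat replicate 2, and the blood median was 0.03 without the 5% protein, 60% fat replicate 1. Of 24 markers of hypothalamic nuclei Pomc alone passed, and their median was -0.03; without the 1% protein, 20% fat replicate 2, 4 were higher and 2 lower, and the median was 0.03.

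**Figure D4:**
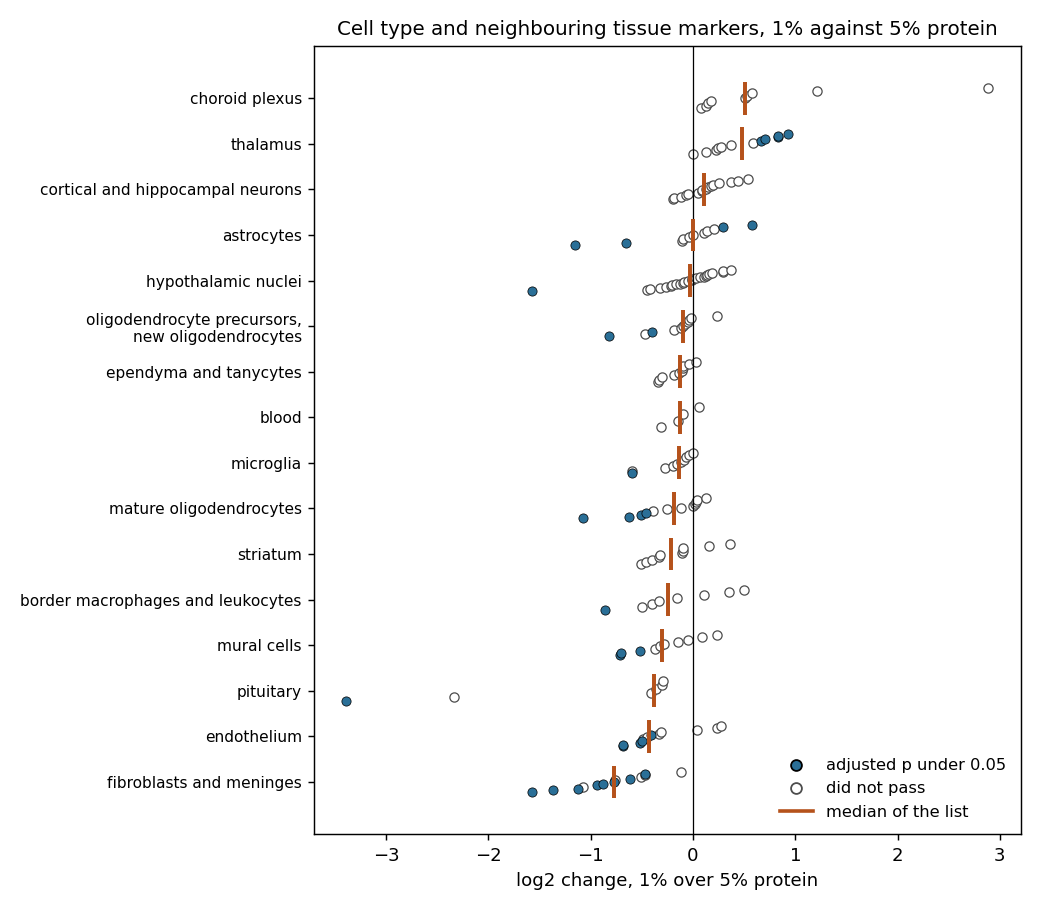
Log2 change of 1% over 5% protein (horizontal axis) for each tested gene of 16 marker lists (rows, ordered by median), filled where the adjusted p was under 0.05 and open where it was not, with the median of each list as a vertical bar. The fibroblast and meningeal list has the lowest median, -0.78, and the medians of the choroid plexus and thalamus lists are 0.51 and 0.48, the first being 0.23 without the 1% protein, 60% fat replicate 1.

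Genes outside these lists were among those that changed most. Itgad, an integrin of leukocytes, had 3.71, 5.80, 5.25 and 8.14 CPM at 1% protein and 1.31, 2.67, 1.36 and 1.66 CPM at 5% protein (log2 1.69 ± 0.25, adjusted p = 0.00204). Pla2g3, a secreted phospholipase, had 13.3, 15.5, 14.7 and 26.3 CPM at 1% protein and 6.51, 7.02, 5.86 and 5.19 CPM at 5% protein (log2 1.48 ± 0.19, adjusted p = 0.000963). Both genes overlap another coding gene. Fbln5, an elastic fibre protein, had the lowest adjusted p of the genes named, with 60.9, 56.5, 72.2 and 73.0 CPM at 1% protein and 37.1, 30.7, 30.7 and 28.7 CPM at 5% protein (log2 1.04 ± 0.10, adjusted p = 8.92e-05).

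Wfikkn2, a secreted inhibitor of myostatin and GDF11, rose by log2 1.43 ± 0.20 (adjusted p = 0.00115), with 10.8, 5.46, 10.1 and 11.2 CPM at 1% protein and 3.12, 3.81, 3.48 and 3.48 CPM at 5% protein. Klrg2 rose by log2 1.38 ± 0.22 and the interleukin receptor gene Il12rb1 by 1.02 ± 0.19. Cd101 (1.53 ± 0.29), the chemokine Ccl17 (1.36 ± 0.24) and the sorting nexin Snx31 (1.23 ± 0.29) rose from low levels, all under 4 CPM, and Snx31 missed the threshold in 4 of the fits without 1 library (adjusted p up to 0.0970). Among genes that fell, Slc6a3, the dopamine transporter, had 99.4, 99.6, 88.7 and 95.8 CPM at 1% protein and 191, 134, 180 and 104 CPM at 5% protein (log2 -0.67 ± 0.16, adjusted p = 0.0265), and missed the threshold in 4 of those fits (adjusted p up to 0.0966). Slc18a2, the vesicular monoamine transporter, fell by 0.60 ± 0.11 (adjusted p = 0.00774). They were the 2 of 21 reward genes that passed (median -0.17). Of the list, 2 were higher and 5 lower without the 1% protein, 20% fat replicate 2. In 4 of the other fits without 1 library 1 gene was lower (without replicate 2 at 1% protein and 60% fat, replicate 1 at 5% and 60%, replicate 1 at 1% and 20%, and replicate 1 at 5% and 20%, where 1 was also higher). The median was -0.0044, with 3 lower, without the 5% protein, 20% fat replicate 2. Fbxw23 (-1.47 ± 0.30), Asgr1 (-1.35 ± 0.28), Fam180a (-1.40 ± 0.33), H2-Q1 (-1.34 ± 0.31), Pax5 (-1.26 ± 0.32) and Tnfsf10 (-1.22 ± 0.29) also fell, at levels under 11 CPM; Fam180a, H2-Q1, Pax5 and Tnfsf10 missed the threshold in 2 to 5 of those fits. Fbxw23, annotated as a transcribed pseudogene, and H2-Q1 belong to families of near-identical genes.

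Several lists held no gene past the threshold: the immediate early genes that mark neuronal activity (25 tested, median -0.01), the growth hormone, somatostatin and IGF axis (19, -0.03), the reproductive axis (14, -0.12) and autophagy and lysosome genes (27, 0.06). Their genes with the lowest p include Jun (adjusted p = 0.0807), Sstr1, a somatostatin receptor (0.0920), Tacr3, the neurokinin B receptor (0.0506), and Gabarapl1, an autophagy protein (0.0563). Without the 1% protein, 20% fat replicate 2, 7 autophagy and lysosome genes were higher, 2 immediate early genes were higher and 2 lower, 1 gene of the growth hormone axis was higher and 2 reproductive genes were lower.

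Within a fat content there are 2 libraries against 2, and fewer genes passed. At 60% fat 8 rose and 10 fell (0.108% of genes tested), and at 20% fat 38 rose and 49 fell (0.523%). The number at 60% fat ran from 0, without the 1% protein, 60% fat replicate 2, to 460, without the 1% protein, 20% fat replicate 1, and at 20% fat it ran from 8, without the 5% protein, 20% fat replicate 1, to 188, without the 1% protein, 20% fat replicate 1. Over both fat contents together 410 genes rose and 401 fell. The median change of those 410 was 0.34 at 60% fat and 0.30 at 20% fat, and of those 401 it was -0.48 and -0.49. These genes were selected on the same libraries, so the medians are not an independent check. Npy rose by log2 1.31 at 60% fat (adjusted p = 0.0406) and by 2.05 at 20% fat (adjusted p = 0.00123), and Pomc fell by 1.56 (adjusted p = 0.0132) and 1.58 on the log2 scale (adjusted p = 0.00262). At 60% fat the genes with the largest changes were Npy, Rasd1, a glucocorticoid-inducible Ras protein (log2 1.12), and Cyp4f15, a fatty acid hydroxylase (0.94), among those that rose, and Pomc, the organic anion carrier Slc22a8 (-1.19) and the matrix protein Bgn (-1.002) among those that fell. At 20% fat they were Itgad, Npy and Pla2g3, and Pomc, Dio3, which inactivates thyroid hormone, and the noncoding RNA Meg3. Dio3 and Meg3 are imprinted neighbours on chromosome 12. Meg3 overlaps 5 other genes, none of them coding, so its counts may depend on how shared reads were counted. Dio3 had only 4 and 9 counts at 1% protein and 20% fat. Meg3 had 2.93 and 3.31 CPM at 1% protein and 14.9 and 16.9 CPM at 5% protein at 20% fat, and 2.93 and 5.29 CPM at 1% protein and 4.43 and 2.88 CPM at 5% protein at 60% fat. Dio3 had 0.221 and 0.488 CPM at 1% protein and 1.68 and 2.71 CPM at 5% protein at 20% fat, and 1.91 and 1.07 CPM at 1% protein and 1.81 and 1.63 CPM at 5% protein at 60% fat. The difference between fat contents was tested as an interaction and passed for 0 genes, Meg3 and Dio3 included (adjusted p = 0.831 each), with 830 at an unadjusted p under 0.05 and 0 by DESeq2.

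The 2.5% and 20% protein libraries give the neighbouring steps of the series. Between 1% and 2.5% protein 231 genes rose and 155 fell (2.32% of genes tested), and 163 of the 410 risers and 121 of the 401 fallers passed there with the same sign. This comparison shares the 1% libraries with the one above. Its diets have codes that start alike, while those of 2.5% and 5% protein do not. Between 2.5% and 5% protein 0 genes passed edgeR's test (717 at an unadjusted p under 0.05). Between 5% and 20% protein 3 rose and 2 fell (0.03%), and 3 of the 811 were among them. The median change of the 410 risers was 0.27 for 1% over 2.5%, 0.04 for 2.5% over 5% and 0.03 for 5% over 20% protein. For the 401 fallers it was -0.33, -0.12 and -0.03. Both sets were selected by the 1% against 5% difference, and these steps share its libraries. That selection shapes the medians, so they do not place the change at a step. Whether the change between 1% and 5% differs from that between 5% and 20% was tested directly, and 0 genes passed (991 at an unadjusted p under 0.05, 8 by DESeq2).

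Npy averaged 80.3 ± 29.6, 31.1 ± 8.94, 24.1 ± 2.84 and 17.2 ± 3.57 CPM at 1%, 2.5%, 5% and 20% protein (SD, n = 4 each). Pomc averaged 12.7 ± 1.2, 25.3 ± 8.77, 37.7 ± 6.12 and 47.5 ± 7.56 CPM over the same levels. In both genes 1% differed from 2.5% protein (Npy log2 1.35, adjusted p = 0.00154; Pomc -0.98, adjusted p = 0.0150), while the steps from 2.5% to 20% did not pass. Fkbp5 averaged 117 ± 24.6, 53.7 ± 9.64, 55.7 ± 7.05 and 47.1 ± 2.33 CPM, and Ddit4 averaged 105.5 ± 7.84, 61.0 ± 6.03, 60.0 ± 6.77 and 49.1 ± 2.43 CPM. In these 2 genes the 1% libraries lay above all 12 others. Mt1 averaged 365 ± 16.5, 268 ± 27.6, 274 ± 17.3 and 204 ± 10.03 CPM, and passed between 1% and 2.5% (log2 0.44) and between 5% and 20% protein (0.42, adjusted p = 0.0369). Angptl4, with 15.7 ± 1.11, 7.81 ± 0.581, 10.7 ± 1.86 and 6.35 ± 0.651 CPM, and Mt2 also passed at both steps, and their means at 2.5% lay below those at 5% protein. Ednrb, an endothelin receptor of astrocytes and vessels, fell by 0.31 ± 0.05 between 1% and 5% (adjusted p = 0.00349) and was lower at 5% than at 20% protein (log2 -0.34, adjusted p = 0.0177).

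**Figure D5:**
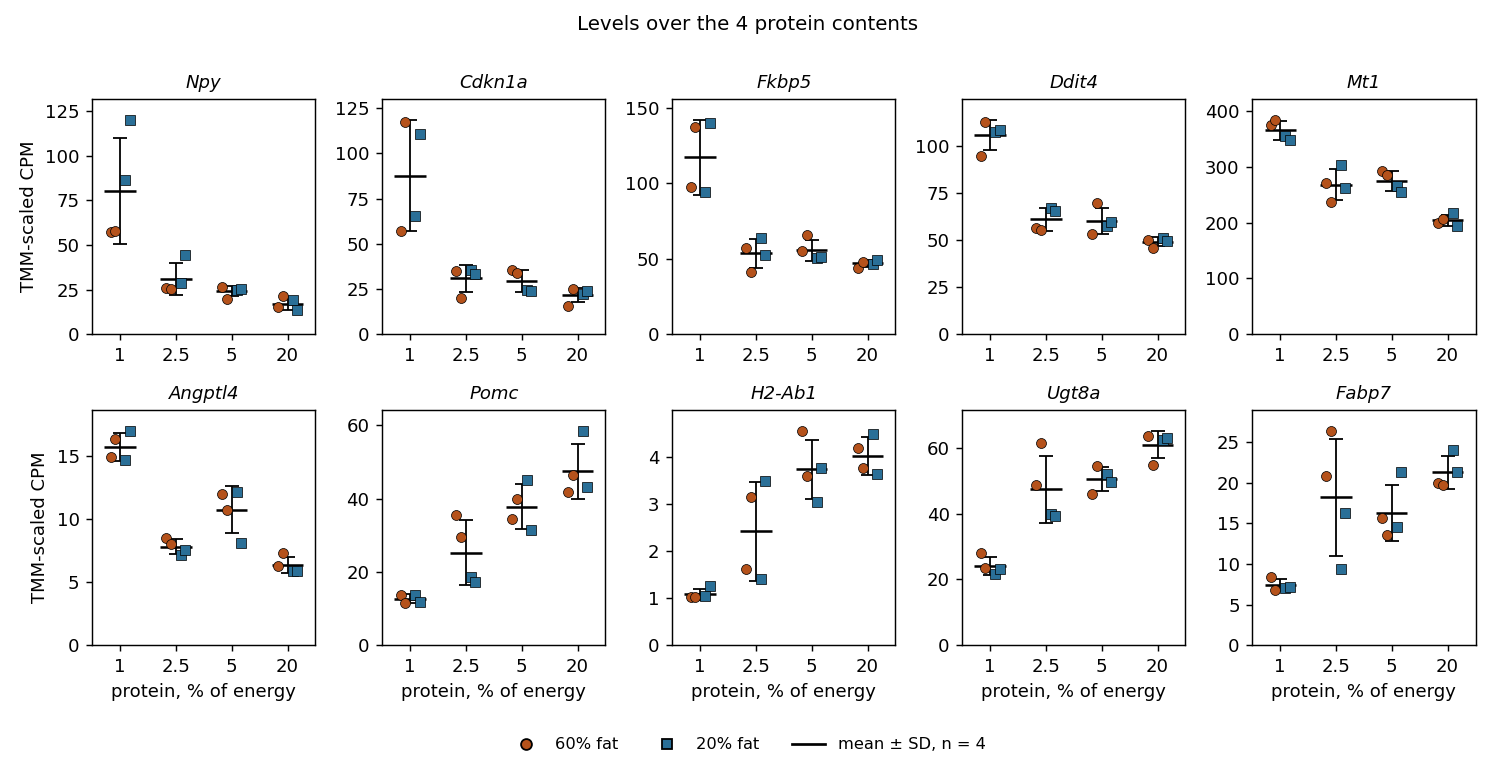
TMM-scaled CPM (vertical axes, from 0) of 10 genes at 1%, 2.5%, 5% and 20% of energy from protein (horizontal axes, equally spaced), 4 libraries each, circles for 60% fat and squares for 20% fat, with the mean and SD as bars. Fkbp5 and Ddit4 stand high at 1% protein alone, while the means of Pomc run upward over the 4 levels from 12.7 to 47.5 CPM.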

How the data were processed

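Total RNA of dissected hypothalamus was sequenced in 16 libraries, 2 for each of 8 diets. The deposited values are whole-number counts of reads per gene. Per the submitters' processing notes, the tools were FastQC, HISAT2 2.1.0, SAMtools 1.2, Subread 5.0, featureCounts and edgeR, with build GRCm38; the counting options and strand setting are not given there. The deposited file also lists a gene length in bases.

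From these counts, edgeR 4.0.16 in R 4.3.3 was fitted to all 16 libraries, with protein as 4 levels and fat as covariate, TMM scaling and filterByExpr (minimum count 10), which kept 16646 of 47069 genes. The quasi-likelihood F test compared 1% with 5% protein, and p-values were adjusted by the Benjamini-Hochberg method. A second model with each diet as a group gave the contrasts within a fat content and their interaction. CPM values are TMM-scaled. The comparison and the 42 gene lists were chosen with earlier results of these data known. Named genes were the 15 highest and 15 lowest by log2 change among genes that passed and averaged 1 CPM or more, up to 5 per list, the 3 highest and lowest of the other contrasts, 7 genes given in any case and, for a list with none past the threshold, up to 2 with the lowest p. Of 140 named genes 58 overlap another gene, 18 of them a coding gene: besides those marked in the text, Bmp4, Cryab, Dusp1, Ermn, Hexa, Mtor, Ndufs3, Rarb, Rpl12 and Rpl3. The 20 alternatives used RLE factors, DESeq2 1.42.0, a likelihood ratio test, a robust fit, other filters, the 8 compared libraries alone, diets as groups, a replicate block, 1 surrogate variable (sva 3.50.0), a length offset, no libraries with cortex markers, and each library left out in turn. The fit was tested on simulated data. Some results are not reported here.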

Additional observations from a re-analysis of the deposited data

Results flagged for a closer look

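Among 228 groups of 4 libraries examined, 13 had 1 library far from the other 3, all at 1% protein; chance gives about 1 in 20 such groups. In 9 of them it was the 1% protein, 20% fat replicate 2, the library with raised cortex markers. That replicate was high for Ermn (58.1 CPM, others 40.6 to 43.3), H2-Ab1 (1.25 CPM, others 1.01 to 1.05), Pcsk1 (36.1 CPM, others 32.3 to 32.5), Pla2g3 (26.3 CPM, others 13.3 to 15.5) and Thbd (10.1 CPM, others 4.81 to 5.01). It was low for Cebpb (3.96 CPM, others 4.67 to 4.73), Rpl10a (63.1 CPM, others 75.6 to 77.1), Rpl14 (125.5 CPM, others 153.7 to 158.7) and Rpl3 (205.6 CPM, others 244.6 to 250.8). The 1% protein, 60% fat replicate 2 was high for Hr (217.5 CPM, others 157.6 to 164.4) and for the thalamic markers Plekhg1 (113.0 CPM, others 77.2 to 81.2) and Tcf7l2 (150.1 CPM, others 113.9 to 116.3). The 1% protein, 60% fat replicate 1 was low for Cd101, with 0.732 CPM where the other 3 had 1.82 to 1.91 CPM.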

How the results depend on the processing

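Of the 109 named genes that passed, none changed sign in any of the 20 alternatives, 49 passed in all of them, 33 missed the threshold in 1 to 5 and 27 in 6 or more; 5 had no adjusted p from DESeq2 in one alternative. The 811 genes became 229 with the 8 compared libraries alone (86 higher, 143 lower, so 37.6% higher against 50.6%), 4035 without the libraries with cortex markers (1950 higher, 2085 lower), and 332 to 3819 without single libraries; without the 1% protein, 60% fat replicates 1 and 2 and the 5% protein, 20% fat replicate 2 the share higher was 39.1%, 39.5% and 32.5%. At 60% fat the 18 became 221 by DESeq2, 300 by the likelihood ratio test, 779 with no filter beyond 1 count, 0 with 8 libraries, 624 without the cortex-marker libraries and 0 to 460 without single libraries. At 20% fat the 87 became 168, 258, 310 and 7 under the first 4 of these, 469 with 1 surrogate variable and 8 to 188 without single libraries. The interaction gave 1 gene with no filter beyond 1 count. The difference between the steps gave 8 by DESeq2, 10 by the likelihood ratio test, 1 without the cortex-marker libraries and 0 to 1 without single libraries, and has no value with 8 libraries. The causes were not tested. Mtor turned to -0.024 with 1 surrogate variable and ran from -0.012 to 0.051 without single libraries; Hba-a2, a hemoglobin gene, ran from -0.28 to 0.050.

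The main fit did not pair samples by replicate number, and whether those numbers carry a shared factor across diets was not settled. Correlations of the replicate differences between diets were -0.054 to 0.339 among the 4 diets compared, with 3 of 6 over 0.1. With a replicate block 1051 genes passed, and 28 at 60% fat, 99 at 20% fat and 0 for the interaction and for the steps.

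With 2 libraries per diet, 17731242 to 18511818 counts each, replicate spread limits the comparison within a fat content, and counting error limits genes near 1 CPM. The diet codes cannot be told apart from protein content.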
